A study of Mus musculus with 15 samples.

Results

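The genes described here are the heat shock proteins and DnaJ chaperones of mouse CD4 T cells. They were taken by symbol from the table of raw counts: the HSP70 and HSP110 genes (Hspa and Hsph1), the HSP90 genes, the chaperonin pair Hspd1 and Hspe1, the small heat shock proteins (Hspb) and the J-domain proteins of the Dnaja, Dnajb and Dnajc families, leaving out symbols marked as pseudogenes. This gave 72 genes of the 49492 in the table, and 64 of them passed the filter on low counts, which left 19942 genes in all. The 8 genes not tested were Dnajb8, Dnajc22, Dnajc5b, Dnajc5g, Hspb2, Hspb3, Hspb7 and Hspb8, whose counts over all 15 libraries ran from 0 (Hspb3 and Hspb8) to 39 (Hspb7). The rule used names and no measured value.

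The series holds 15 bulk RNA-seq libraries in 5 groups of 3, all of CD45.1+ OT-II cells, which carry a transgenic T cell receptor for a peptide of ovalbumin (OVA). The naive group was sorted as CD44lo CD62L+ cells from superficial lymph nodes and spleen of untreated CD45.1×OT-II mice and was not transferred. The other 4 groups were such cells after transfer into C57BL/6 (WT) or Batf3-/- recipients, which were given 60 µg OVA with 30 µg of the protease papain into the nose, 3 times, from 24 h after the transfer. On day 5, CD44hi donor cells were sorted from mediastinal lymph nodes as CD62L- or CD62L+, giving 4 primed groups: WT CD62L-, WT CD62L+, Batf3-/- CD62L- and Batf3-/- CD62L+. The deletion of Batf3, a transcription factor needed for one lineage of dendritic cells, is in the recipient animals and not in the donor cells that were sequenced, so no count in these libraries checks it. The comparisons with naive cells differ in transfer, recipient and organ as well as in priming. Whether replicates came from separate animals or pools is in no label, so a p-value here reflects the spread among the libraries of a group, which may be technical.

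HSP70 chaperones hold unfolded stretches of other proteins in cycles driven by ATP. J-domain (DnaJ) proteins bring them clients and trigger ATP hydrolysis, HSP110 proteins exchange the nucleotide, and HSP90 acts later, on clients near their native fold. The cytosol, the endoplasmic reticulum (ER) and the mitochondria each have their own set. Heat shock factor HSF1 is known to induce the cytosolic set and the mitochondrial chaperonin through repeats of the unit GAA and its complement TTC, and the unfolded protein response is known to induce the ER set through another element, CCAAT spaced from CCACG.

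Stretches with a match to one of these elements are shown for 8 genes whose levels are described below. Hspa4l, Dnajb1, Dnajc7, Dnajc15 and Dnajb9 were among the other genes described below that had no match in their windows. Hspd1, Hspb1, Hspb6 and Dnajb4 had a match but are not shown. Promoter windows from RefSeq on GRCm38.p6, from 250 bases before to 50 after a start site, were available for 58 of the 72 genes, and those of Hspa8, Hsp90aa1 and Hsp90ab1 were not analysed here. Sequences run 5′ to 3′ on the strand of the gene, and capitals mark the matched motif, either GAANNTTC or TTCNNGAA (overlapping matches of both in Hspe1) or, for the ER genes, CCAAT with CCACG after any 9 bases. Hspa1a (chr17:34972157-34972306) and Hspa1b (chr17:34959239-34959388) lie on the minus strand, with the 150 bases before each start shown. The others are stretches of 30 bases around the motif of Hspe1 (chr1:55088053-55088082, plus strand), Hsph1 (chr5:149636351-149636380, minus strand), Dnaja1 (chr4:40722333-40722362, plus strand), Hspa5 (chr2:34772020-34772049, plus strand), Hsp90b1 (chr10:86705632-86705661, minus strand) and Dnajc3 (chr14:118937822-118937851, plus strand).
Hspa1a: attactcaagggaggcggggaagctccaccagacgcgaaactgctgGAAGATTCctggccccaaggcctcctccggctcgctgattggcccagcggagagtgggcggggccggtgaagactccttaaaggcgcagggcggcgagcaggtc
Hspa1b: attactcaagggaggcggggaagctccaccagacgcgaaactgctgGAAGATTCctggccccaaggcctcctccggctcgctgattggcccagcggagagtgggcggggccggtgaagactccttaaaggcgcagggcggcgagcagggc
Hspe1: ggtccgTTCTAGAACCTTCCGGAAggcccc
Hsph1: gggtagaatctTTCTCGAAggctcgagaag
Dnaja1: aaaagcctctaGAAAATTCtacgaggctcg
Hspa5: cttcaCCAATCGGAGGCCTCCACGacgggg
Hsp90b1: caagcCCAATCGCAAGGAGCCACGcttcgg
Dnajc3: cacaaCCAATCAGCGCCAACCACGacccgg

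The 250 bases before the starts of Hspa1a and Hspa1b differed at 3 positions, and the 150 printed at 1. Their motif spanned bases 104 to 97 before the start, and the run of 18 bases of Hspe1 spanned bases 89 to 72 before its start. Hspd1, on the opposite strand, has RefSeq starts on both sides of the start of Hspe1. Searching both strands, GAANNTTC was found in 14 of the 58 genes (24.1%) and in 9.04% of 27025 genes with a window. TTCNNGAA, which can overlap it, was found in 6 genes (10.3%) against 9.6% of all. The longer run in which GAANNTTC goes on as NNGAA was found in Dnajb6, Hspd1, Hspe1 and Hsph1 (6.9%) against 0.662% of all. The ER element, searched after the values were seen, was found in Hspa5, Hsp90b1 and Dnajc3 (5.17%) against 0.137% of all. A match describes letters in a window and does not show binding.

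Per library, 38082967 to 99380475 reads were counted, and the 72 genes took 0.782 to 1.13% of them. CD4 T cell markers (6 genes, among them Cd4 and Trac) summed to between 11000 and 17500 CPM (counts relative to the scaled library size) in every library, and none was at 0. The ribosomal RNA gene Rn18s-rs5 took 1.57 to 2.18% of counts in the 5 libraries numbered 1 and 3.49 to 7.04% in the other 10. Library 3 of WT CD62L- cells was the shallowest, and library 3 of Batf3-/- CD62L- cells had the highest ribosomal share. Some counts of called genes are given both with and without these 2 libraries that stand apart. Without them 13 of 103 values of called genes were no longer called at an adjusted p under 0.05, and not all of these are named. In bulk libraries, fewer cells with a transcript and less of it per cell cannot be told apart.

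A few genes made up a large share of the chaperone RNA. On the RPKM scale, which divides CPM by exon length in kilobases, Hspa8, the constitutive cytosolic HSP70, had the highest mean level of the 72 genes in each group, followed by Hsp90ab1, the constitutive HSP90, and Hspa5, the ER HSP70 also called BiP. In naive cells these levels were 541, 298 and 102 RPKM, or 25.7, 14.2 and 4.83% of the summed level of the 72 genes. In WT CD62L- cells they were 479, 439 and 253 RPKM, or 21, 19.2 and 11.1%. Rank 4 belonged to Dnajb1 in naive cells, at 98.1 RPKM, and to Hsp90aa1, the inducible HSP90, in all 4 primed groups, at 98.1 to 150 RPKM. At the other end, 13 to 15 of the 72 genes were under 1 CPM in each group.

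The first question was how the chaperones of primed cells differed from those of naive cells. The inducible HSP70 genes, the ER chaperone Hspa5 and Hsp90ab1 were higher in each of the 4 primed groups, while several J-domain genes were lower. The 4 comparisons share the 3 naive libraries, so they are given side by side and are not independent of each other. In WT CD62L- cells 11 of the 64 genes were called higher and 12 lower at an adjusted p under 0.05, where 16.9% of all genes tested were called higher and 13.2% lower (30.1% in all). In WT CD62L+ cells 6 were higher and 10 lower, against 15.8 and 11.4% of all genes (27.2% in all). In Batf3-/- CD62L- cells 12 were higher and 12 lower, against 16.5 and 12.8% (29.3% in all), and in Batf3-/- CD62L+ cells 17 were higher and 9 lower, against 16.9 and 13.3% (30.2% in all). The share of the 64 genes called was 35.9, 25, 37.5 and 40.6%, and their median log2 fold change was 0.01, 0.01, 0.04 and 0.07, beside -0.08, -0.01, 0 and 0 over all genes tested. Without the naive library numbered 2, the count in Batf3-/- CD62L- cells was 15 in place of 24, and without both libraries that stand apart the count in WT CD62L+ cells was 25 in place of 16.

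Hspa1a and Hspa1b encode the stress-inducible cytosolic HSP70. In the 3 naive libraries, in the order of their numbers, Hspa1a stood at 6.62, 7.77 and 6.72 CPM. It stood at 35.1, 52.8 and 56.2 CPM in WT CD62L- cells, at 41.6, 42.1 and 56.8 CPM in WT CD62L+ cells, at 72.2, 147 and 245 CPM in Batf3-/- CD62L- cells and at 68.5, 139 and 173 CPM in Batf3-/- CD62L+ cells. Every primed library was above every naive one, and every library from Batf3-/- recipients was above every library from WT recipients. Against naive cells the log2 fold changes were 2.77 ± 0.4 (SE) and 2.73 ± 0.4 in WT CD62L- and CD62L+ cells and 4.46 ± 0.43 and 4.17 ± 0.43 in Batf3-/- CD62L- and CD62L+ cells, with adjusted p of 0.00011, 0.000135, 2.37e-06 and 3.96e-06 (edgeR's quasi-likelihood test, Benjamini-Hochberg adjustment). Hspa1b was lower in level, from 1.76 to 2.42 CPM in naive cells and from 11 to 76.8 CPM in primed cells, with log2 fold changes of 2.57 to 4.52. Of the 50-base words of Hspa1a and Hspa1b, 60.3% and 62.3% also occur in other genes, nearly all of them in the other member of the pair, so the counts of one may hold reads of the other. Both calls held under all 21 alternatives in each comparison.

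Even so the inducible HSP70, as counted, stayed below Hspa8 in every library. The summed RPKM of Hspa1a and Hspa1b was 0.582 ± 0.0777% (SD, n = 3) of that of Hspa8 in naive cells. It was 4.3 ± 0.743% and 3.68 ± 0.539% in WT CD62L- and CD62L+ cells, and 12.1 ± 6.55% and 7.79 ± 3.05% in the Batf3-/- CD62L- and CD62L+ groups. The highest single library was number 3 of Batf3-/- CD62L- cells, at 18.8%. Hspa8 itself stood at 2600, 2310 and 2070 CPM in naive cells, at 1940 to 2520 CPM in the 9 libraries of WT CD62L-, WT CD62L+ and Batf3-/- CD62L- cells, and at 3010, 3020 and 3260 CPM in Batf3-/- CD62L+ cells. It passed the test against naive cells in that last group (log2 fold change 0.41 ± 0.09, adjusted p = 0.00313), and the other 3 changes lay between -0.17 and 0.08. A share of 38.6% of its words occur in other genes, mostly pseudogenes. How the shared words of these genes bear on the percentages was not tested.

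**Figure D1:**
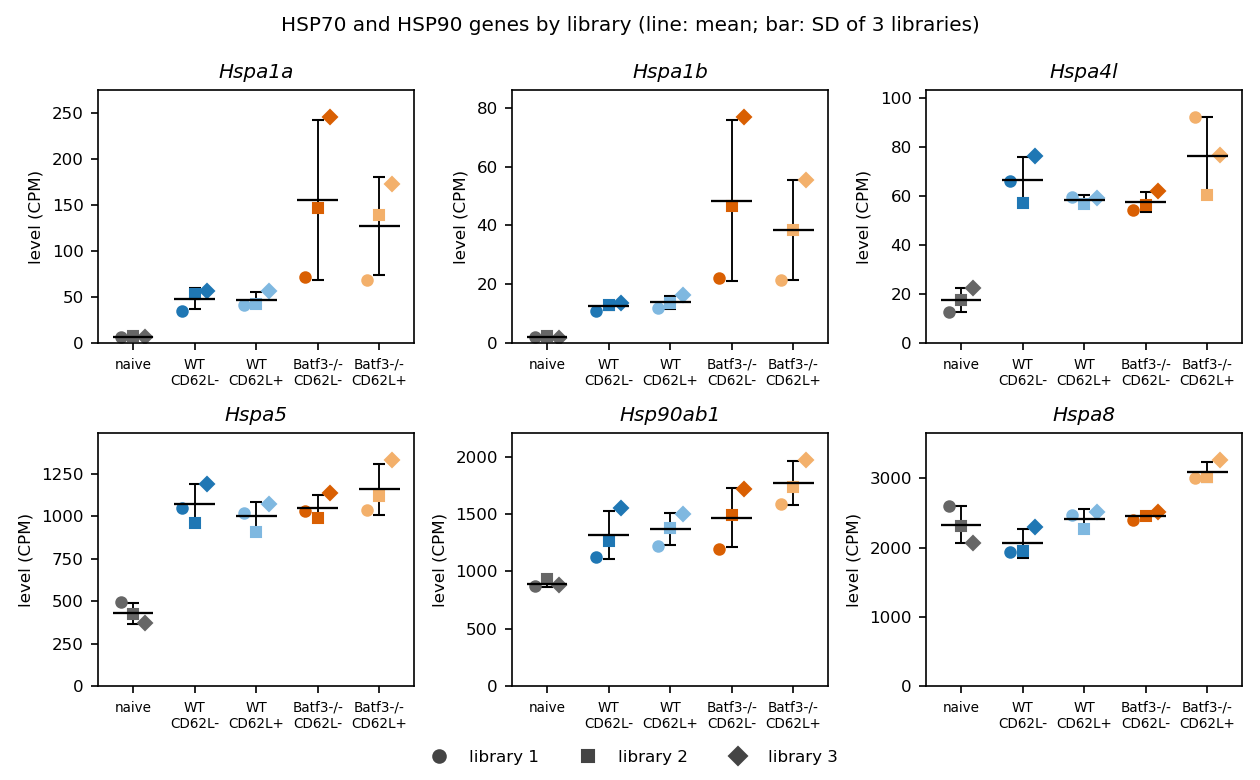
Levels of 6 HSP70 and HSP90 genes in CPM (vertical axes, from 0) in the 3 libraries of each of the 5 groups (horizontal axis), with marker shapes for the library number, a line for the mean and a bar for the SD. Hspa1a and Hspa1b sit lowest in naive cells and highest in the 2 Batf3-/- groups, Hspa5 rises from 370 to 494 CPM in naive cells to 910 CPM or more in each primed library, and Hspa8 overlaps between naive cells and 3 of the primed groups.

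Among other cytosolic HSP70 and HSP110 genes, Hspa4l and Hspa2 were higher in all 4 primed groups, and Hspa4 and Hsph1 in Batf3-/- CD62L+ cells. Hspa4l, an HSP110-type nucleotide exchange factor, stood at 12.8, 17.4 and 22.4 CPM in naive cells and between 54.4 and 92.2 CPM in the 12 primed libraries. Its log2 fold changes were 1.93 ± 0.19, 1.74 ± 0.19, 1.72 ± 0.19 and 2.12 ± 0.2, with adjusted p from 1.45e-06 to 1.03e-05, and primed and naive libraries did not overlap. Hspa2, an HSP70 best known from the testis, was low throughout, at 0.755 to 2.26 CPM in naive and 2.88 to 11.1 CPM in primed libraries, with log2 fold changes of 1.76 to 2.42 that passed the test in all 4 comparisons. Hspa4 and Hsph1, the broadly expressed HSP110 genes, passed it in Batf3-/- CD62L+ cells, with log2 fold changes of 0.29 ± 0.1 (adjusted p = 0.0444) and 0.5 ± 0.11 (adjusted p = 0.00265). Their other changes lay between 0.06 and 0.22 for Hspa4 and between -0.24 and 0.04 for Hsph1. The call of Hspa4 was kept under 10 of 21 alternatives.

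Hsp90ab1 stood at 870, 930 and 884 CPM in naive cells and at 1130 to 1970 CPM in primed cells, with no overlap. Its log2 fold changes were 0.56 ± 0.14, 0.62 ± 0.14, 0.72 ± 0.14 and 0.98 ± 0.14 in WT CD62L-, WT CD62L+, Batf3-/- CD62L- and Batf3-/- CD62L+ cells, with adjusted p of 0.00682, 0.00391, 0.00121 and 8.57e-05. Hsp90aa1 stood at 311 to 341 CPM in naive cells and passed the test in the 2 Batf3-/- groups (log2 fold changes 0.53 ± 0.14 and 0.86 ± 0.14). In the WT groups its changes were 0.25 ± 0.14 and 0.39 ± 0.14, with adjusted p of 0.212 and 0.0589. Of its words, 47.5% occur in other genes. Hspb1, the small heat shock protein HSP27 of human cells, had 0 counts in naive and in WT CD62L+ cells and at most 0.534 CPM elsewhere, and no comparison of it passed the test.

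Of the 12 genes of the heat-inducible set (Hspa1a, Hspa1b, Hspa8, Hspa4l, Hsph1, Hsp90aa1, Hsp90ab1, Dnaja1, Dnajb1, Hspb1, Hspd1 and Hspe1), 4 were higher and 2 lower in WT CD62L-, and also 4 and 2 in WT CD62L+ cells. In Batf3-/- CD62L- cells 6 were higher and 2 lower, and in Batf3-/- CD62L+ cells 9 and 1. In all 50, 50, 66.7 and 83.3% of the set were called, beside 30.1, 27.2, 29.3 and 30.2% of all genes, and 2 lower of 12 is near the 11.4 to 13.2% of all genes called lower there. The median log2 fold changes of the set were 0.12, 0.21, 0.43 and 0.83. Its summed level was 4640 ± 299 CPM (SD, n = 3) in naive cells, 4610 ± 531 and 5170 ± 271 CPM in WT CD62L- and CD62L+ cells, and 5540 ± 557 and 6790 ± 497 CPM in the Batf3-/- groups. The sum is mostly Hspa8 and Hsp90ab1.

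The J-domain partners of cytosolic HSP70 in that set were lower, Dnaja1 in all 4 groups and Dnajb1 in 3. Dnaja1 stood at 413, 424 and 436 CPM in naive cells, at 207, 222 and 240 CPM in WT CD62L- cells, at 276, 244 and 257 CPM in WT CD62L+ cells, at 258, 257 and 276 CPM in Batf3-/- CD62L- cells and at 322, 312 and 300 CPM in Batf3-/- CD62L+ cells. Every primed library was below every naive one. Its log2 fold changes of -0.93 ± 0.08, -0.71 ± 0.08, -0.69 ± 0.08 and -0.45 ± 0.08, with adjusted p from 4.55e-07 to 0.000457, were kept under all 21 alternatives. Dnajb1, the main stress-induced J-domain protein of the cytosol, stood at 290 to 329 CPM in naive and at 195 to 300 CPM in primed cells. It was lower in WT CD62L- (-0.67 ± 0.11), WT CD62L+ (-0.56 ± 0.11) and Batf3-/- CD62L- cells (-0.33 ± 0.11), with adjusted p of 0.000244, 0.00111 and 0.0305. In Batf3-/- CD62L+ cells its range of 224 to 300 CPM overlapped the naive range (-0.26 ± 0.11, adjusted p = 0.0749). Dnajc7, a cochaperone of both HSP70 and HSP90, stood at 248 to 267 CPM in naive and 152 to 201 CPM in primed cells, without overlap, and its log2 fold changes of -0.45 to -0.63 passed the test in all 4 comparisons.

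Further J-domain genes were lower at lower levels. Dnajb2 stood at 18.2 to 31.9 CPM in naive and 4.76 to 17.2 CPM in primed cells, with log2 fold changes of -1.11 to -1.35 that passed the test in each comparison, but were kept under 6 of 21 alternatives in WT CD62L- cells. Dnajc28 stood at 2.81 to 7.84 CPM in naive and 0.265 to 1.68 CPM in primed cells, with log2 fold changes of -1.98 to -2.76. Dnajc6, the clathrin-uncoating protein auxilin, stood at 11.6 to 13.6 CPM in naive cells and was lower in WT CD62L+, Batf3-/- CD62L- and Batf3-/- CD62L+ cells, by -0.81, -1.21 and -1.38. Hspb11, a subunit of the ciliary transport complex that carries a small heat shock protein symbol, was lower in the same 3 groups, by -0.91, -0.68 and -1.24. Dnajb7 had 0 counts in WT CD62L- cells, and its naive level of 0.865 CPM was at least 47.2-fold higher, taking 3 counts over that group as the floor.

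Further called genes, named because they were the rest of those past the threshold, were Dnajc2, a ribosome-associated J-domain protein, higher in WT CD62L-, Batf3-/- CD62L- and Batf3-/- CD62L+ cells (0.34, 0.4 and 0.53), and Dnajc4, a mitochondrial one, higher in the Batf3-/- groups (0.91 and 0.7). Lower were Dnajc11 (-0.59), Dnajc17 (-0.61) and Hspb6 (-1.93) in WT CD62L- cells, Dnajc13 (-0.63) in Batf3-/- CD62L- cells, Dnajc12 (-1.55) in Batf3-/- CD62L+ cells, and Dnajc5, the cysteine-string protein of secretory vesicles, in both Batf3-/- groups (-0.52 and -0.46). The call of Dnajc5 in Batf3-/- CD62L+ cells was kept under 6 of 21 alternatives (adjusted p up to 0.212), that of Dnajc13 under 10 and that of Dnajc2 in WT CD62L- cells under 14. Hspb6 and Dnajc12 were low, at 2.55 to 5.02 CPM and 2.8 to 4.23 CPM in naive cells.

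**Figure D2:**
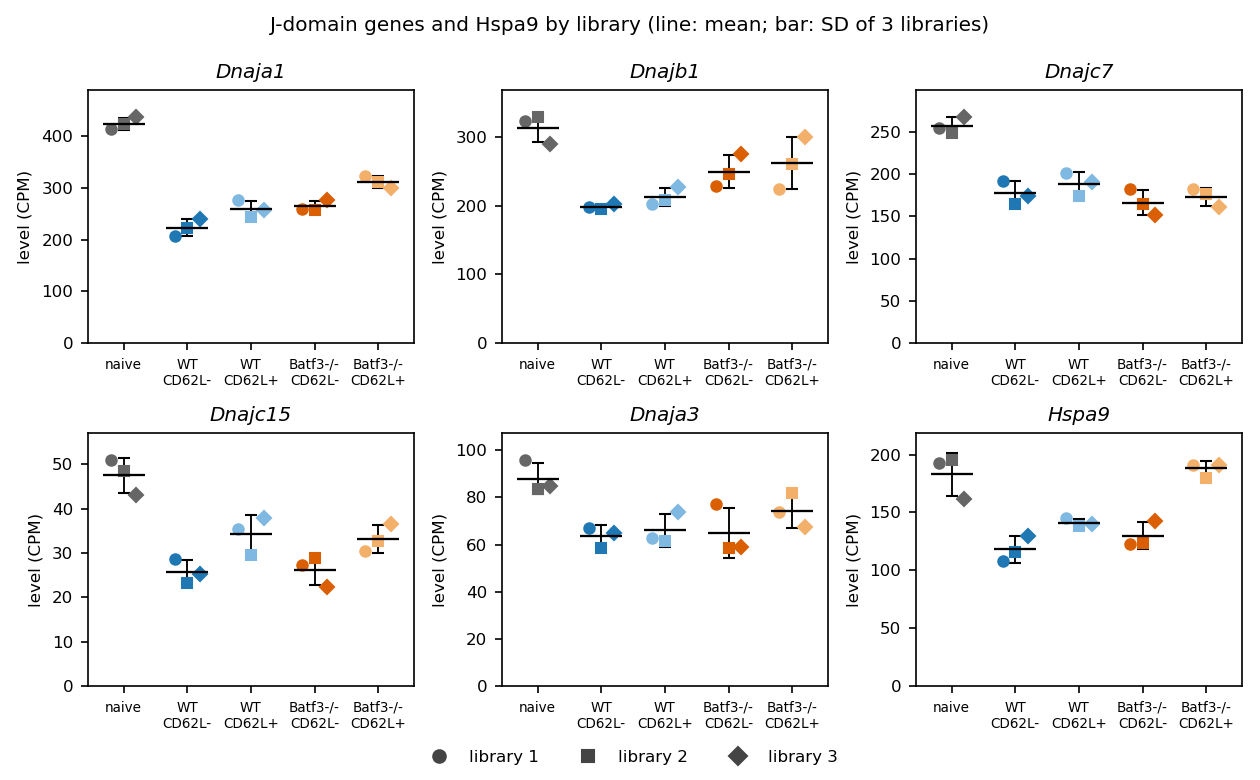
Levels of 5 J-domain genes and of Hspa9 in CPM (vertical axes, from 0) by library for the 5 groups (horizontal axis), with marker shapes for the library number, a line for the mean and a bar for the SD. For Dnaja1, Dnajc7 and Dnajc15 each primed library lies below each naive one, while Hspa9 in Batf3-/- CD62L+ cells lies at 180 to 191 CPM, within the naive range.

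In the ER, Hspa5 stood at 494, 426 and 370 CPM in naive cells, at 1050, 960 and 1190 CPM in WT CD62L- cells, at 1020, 910 and 1070 CPM in WT CD62L+ cells, at 1030, 988 and 1140 CPM in Batf3-/- CD62L- cells and at 1040, 1120 and 1330 CPM in Batf3-/- CD62L+ cells. Primed and naive libraries did not overlap, and the 4 primed groups overlapped each other. The log2 fold changes were 1.31, 1.22, 1.29 and 1.44, each ± 0.12, with adjusted p from 8.14e-07 to 4.22e-06, kept under all 21 alternatives. Of the 8 ER genes tested, 5, 1, 3 and 4 were higher in WT CD62L-, WT CD62L+, Batf3-/- CD62L- and Batf3-/- CD62L+ cells, and 0 were lower by edgeR, by DESeq2 or at an unadjusted p under 0.05. Beside the genes described next these were Dnajc1, an ER membrane J-domain protein, called in WT CD62L-, Batf3-/- CD62L- and Batf3-/- CD62L+ cells (0.53, 0.56 and 0.6), and Hspa13, an ER-associated HSP70, in WT CD62L- cells (1.07, with overlapping groups at 6.31 to 17 and 15.7 to 33.9 CPM). In all 62.5, 12.5, 37.5 and 50% of the 8 were called, beside 30.1, 27.2, 29.3 and 30.2% of all genes. The WT CD62L+ share was below that of all genes. The summed level of the 8 was 1190 ± 120 CPM (SD, n = 3) in naive cells and had means of 1910 to 2110 CPM in primed groups.

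Dnajc3, an inhibitor of the kinase PERK that also serves Hspa5 as a J-domain partner, was higher in the CD62L- groups, with log2 fold changes of 0.43 ± 0.09 (adjusted p = 0.00301) and 0.28 ± 0.09 (adjusted p = 0.0344) in WT and Batf3-/- recipients. In the CD62L+ groups it changed by 0.15 ± 0.09 and 0.12 ± 0.09, with adjusted p of 0.267 and 0.38. Hsp90b1, the ER HSP90, passed the test in Batf3-/- CD62L+ cells (0.32 ± 0.09, adjusted p = 0.0111) and stood at 243 to 257 CPM in naive cells, with changes of 0 to 0.23 elsewhere. Dnajb11, an ER J-domain protein secreted with its clients, changed by 0.16 to 0.29 and passed no test. Dnajb9, an ER J-domain protein that holds back the sensor IRE1, had 40.9 to 49.5 CPM in naive cells and a wide spread in primed cells. In WT CD62L-, WT CD62L+, Batf3-/- CD62L- and Batf3-/- CD62L+ cells it stood at 71.6, 75.6 and 138 CPM, at 71.6, 75.7 and 125 CPM, at 54.4, 76.4 and 114 CPM and at 47.4, 93.4 and 145 CPM. The library numbered 3 was the highest in each, and the calls in WT CD62L- and Batf3-/- CD62L+ cells (adjusted p = 0.046 and 0.0453, the latter with overlapping groups) were kept under 11 and 12 of 21 alternatives.

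The mitochondrial chaperones split. Hspa9, the matrix HSP70 also called mortalin, stood at 193, 195 and 162 CPM in naive cells, at 108, 116 and 130 CPM in WT CD62L- cells, at 145, 138 and 140 CPM in WT CD62L+ cells, at 123, 124 and 143 CPM in Batf3-/- CD62L- cells and at 191, 180 and 191 CPM in Batf3-/- CD62L+ cells. The first 3 primed groups lay below the naive libraries and the last overlapped them. The log2 fold changes were -0.63 ± 0.1, -0.38 ± 0.1, -0.49 ± 0.1 and 0.03 ± 0.1, with adjusted p of 0.000191, 0.01, 0.00152 and 0.831. Dnaja3, its J-domain partner, was lower in those 3 groups as well, by -0.47, -0.42 and -0.44 (each ± 0.13), and changed by -0.24 ± 0.13 in Batf3-/- CD62L+ cells (adjusted p = 0.165). Dnajc15, a J-domain protein of the inner membrane, stood at 43 to 50.9 CPM in naive and 22.4 to 37.9 CPM in primed cells and was lower in all 4 groups, by -0.89, -0.47, -0.86 and -0.51.

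Hspd1 and Hspe1, the HSP60 and HSP10 of the matrix chaperonin, were higher in Batf3-/- CD62L+ cells, by 0.77 ± 0.09 (adjusted p = 1.45e-05) and 0.81 ± 0.13 (adjusted p = 0.000337). Hspd1 was also called in Batf3-/- CD62L- cells (0.26 ± 0.09, adjusted p = 0.0433, kept under 12 of 21 alternatives). In the WT groups Hspd1 changed by 0 ± 0.09 and 0.23 ± 0.09 and Hspe1 by -0.3 ± 0.13 and 0.18 ± 0.13, and none of these passed the test. Of the words of Hspd1 and Hspe1, 39.7% and 18.4% also occur in other genes, those of Hspd1 mostly in a pseudogene. Of the 10 mitochondrial genes, 0, 0, 2 and 3 were higher and 5, 4, 4 and 2 lower in WT CD62L-, WT CD62L+, Batf3-/- CD62L- and Batf3-/- CD62L+ cells. The called share of 50, 40, 60 and 50% stands beside 30.1, 27.2, 29.3 and 30.2% of all genes. For the WT groups DESeq2 also called 0 higher, and 1 and 2 were higher at an unadjusted p under 0.05.

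**Figure D3:**
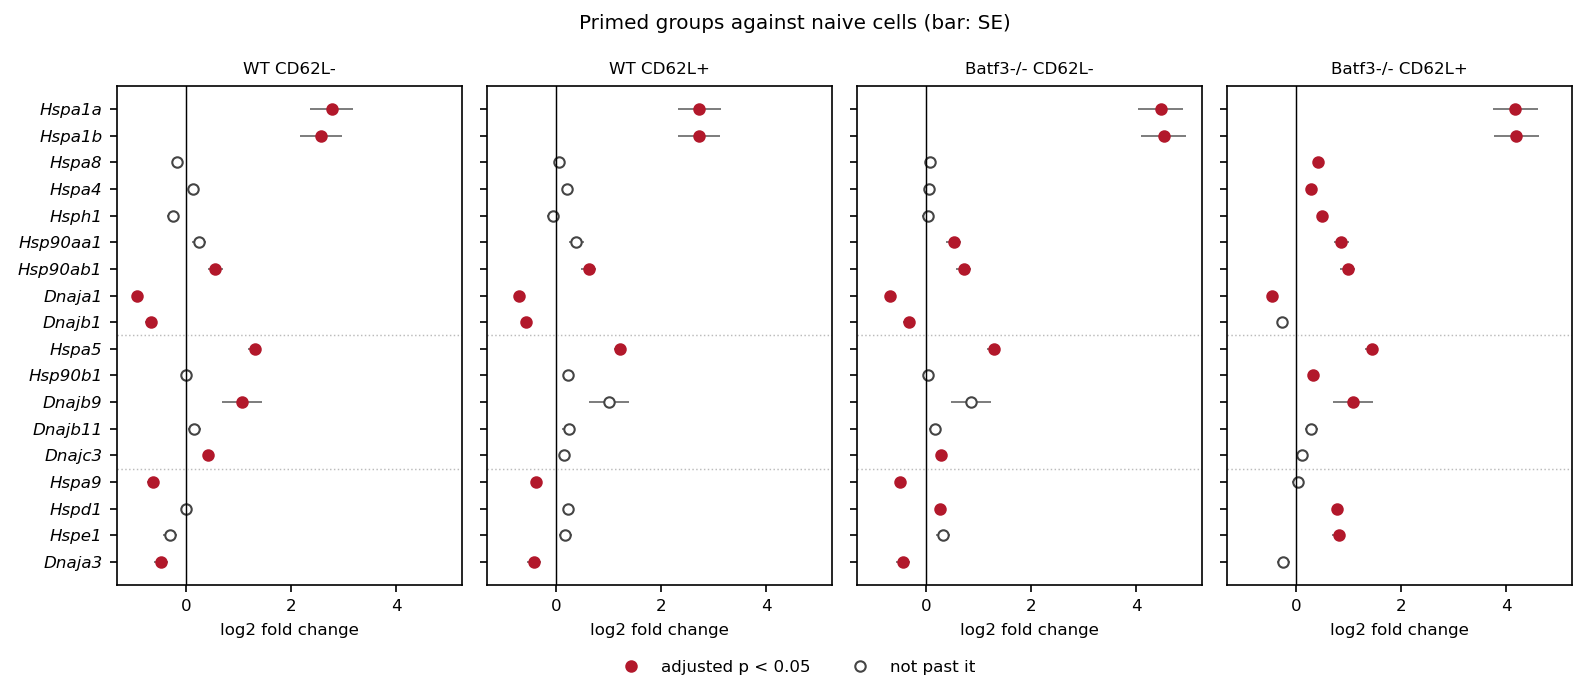
Log2 fold change against naive cells (horizontal axes) of 18 chaperone genes (vertical axis; dotted lines divide cytosolic, ER and mitochondrial genes) in the 4 primed groups, with bars for the SE and filled points for an adjusted p under 0.05. Hspa1a and Hspa1b lie farthest to the right in each panel, at 2.57 to 4.52, Hspa5 lies between 1.22 and 1.44, and Dnaja1 lies left of 0 in each. Hspb1 is not drawn.

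Among the regulators, Hsf1, the main heat shock factor, was lower than in naive cells in all 4 groups. It stood at 119, 114 and 130 CPM in naive cells and at 59.9 to 84.1 CPM in primed cells. Its log2 fold changes were -0.88, -0.64, -0.84 and -0.64, each ± 0.11, with adjusted p from 3.46e-05 to 0.000664, so it was lower in the same comparisons in which Hspa1a and Hspa1b were higher. Hsf2 was lower as well (-1.12 to -1.42), and Hsf4, at 0.0738 to 0.147 CPM in naive and 0.335 to 3.2 CPM in primed cells, was higher (2.02 to 4.86). Among 21 cochaperones of HSP70 and HSP90, 5, 2, 4 and 2 were higher and 8, 5, 6 and 4 lower in WT CD62L-, WT CD62L+, Batf3-/- CD62L- and Batf3-/- CD62L+ cells. In all 61.9, 33.3, 47.6 and 28.6% of them were called, beside 30.1, 27.2, 29.3 and 30.2% of all genes, so the share was near that of all genes in the CD62L+ groups. St13, the HSP70-stabilizing protein Hip, stood at 132 to 154 CPM in naive and 307 to 397 CPM in primed cells (log2 fold changes 1.23 to 1.41). Fkbp4, an HSP90-bound immunophilin, stood at 208 to 240 CPM in naive and 87.8 to 185 CPM in primed cells (-0.32 to -1.09), and Bag5, a nucleotide exchange factor, was lower in all 4 groups (-0.74 to -1.06).

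Of the 8 subunits of TRiC, the cytosolic chaperonin that folds actin and tubulin, 0, 5, 1 and 7 were higher and 1, 0, 1 and 0 lower in those 4 groups, and of the 6 prefoldin subunits, which feed it, 2, 2, 2 and 3 were higher and 1, 0, 0 and 0 lower. The share of TRiC genes called was 12.5, 62.5, 25 and 87.5% and that of prefoldin genes 50, 33.3, 33.3 and 50%, the latter of only 6 genes. Of 10 mitochondrial partners and proteases, 1, 2, 1 and 3 were higher and 2, 1, 0 and 0 lower, or 30, 30, 10 and 30%, which is near or below the share of all genes. Of 18 genes of ER folding and the unfolded protein response, 7, 9, 7 and 9 were higher and 0, 1, 0 and 1 lower, or 38.9, 55.6, 38.9 and 55.6% called. Among these Xbp1, a transcription factor of that response, stood at 93.7 to 103 CPM in naive and 139 to 189 CPM in primed cells (0.58 to 0.83), and Sdf2l1, a partner of Hspa5, was higher by 1.26 to 1.42.

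Genes that rise within minutes of stimulation or of tissue handling differed in the same comparisons. Of 10 immediate early genes, 6, 6, 7 and 6 were higher than in naive cells in WT CD62L-, WT CD62L+, Batf3-/- CD62L- and Batf3-/- CD62L+ cells. None (0) were lower by edgeR, by DESeq2 or at an unadjusted p under 0.05. The called share was 60, 60, 70 and 60%, beside 30.1, 27.2, 29.3 and 30.2% of all genes. Fos stood at 135 to 141 CPM in naive and 496 to 1260 CPM in primed cells, and Dusp1 at 199 to 217 CPM against 658 to 1410 CPM. Erythroid markers (7 genes) summed to 574 to 680 CPM in naive and 9.4 to 101 CPM in primed cells. Their part in the chaperone differences was not tested.

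The second question was whether CD62L- and CD62L+ primed cells differed. Averaged over both recipients, 7 of the 64 genes were lower in CD62L- cells and 0 higher by edgeR, where 1.43% of all genes tested were lower and 1.53% higher (2.96% in all). DESeq2 called 8 lower and 2 higher, beside 616 lower and 643 higher of all 19942 genes. At an unadjusted p under 0.05, 10 were lower and 4 higher, beside 1500 lower and 1431 higher of all genes. The 7 called by edgeR were Hspe1 (log2 fold change -0.48 ± 0.09, adjusted p = 0.0108), Hspa9 (-0.39 ± 0.07, 0.00568), Hspd1 (-0.37 ± 0.06, 0.00453), Hsph1 (-0.32 ± 0.08, 0.0361), Hspa8 (-0.28 ± 0.06, 0.0267), Hsp90b1 (-0.26 ± 0.06, 0.0362) and Dnaja1 (-0.23 ± 0.05, 0.0361). They are the matrix chaperonin and HSP70, the constitutive cytosolic HSP70 with 1 J-domain partner and 1 exchange factor, and the ER HSP90. Hspa1a and Hspa1b changed by 0.16 ± 0.26 and 0.09 ± 0.26, with adjusted p of 0.859 and 0.937, and Hspa5 by -0.03 ± 0.09 (adjusted p = 0.947). The other fixed genes did not pass either: Hsp90aa1 (-0.24), Hsp90ab1 (-0.16), Hspa4 (-0.15), Dnaja3 (-0.12), Dnajb11 (-0.1), Dnajb1 (-0.08), Dnajb9 (-0.08) and Dnajc3 (0.22) had adjusted p of 0.104 to 0.949, and Hspb1, near 0 counts, 0.369.

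Hspe1 had the largest change of the 7. It stood at 36, 43.2 and 47.6 CPM in WT CD62L- and at 51.6, 60 and 65.5 CPM in WT CD62L+ cells, and at 55.2, 72.5 and 67.6 CPM in Batf3-/- CD62L- and 82.7, 91.7 and 99.1 CPM in Batf3-/- CD62L+ cells. The subsets did not overlap within either recipient. Hspd1 stood at 178, 157 and 181 CPM against 215, 184 and 206 CPM in WT, and at 206, 200 and 211 CPM against 294, 278 and 307 CPM in Batf3-/- recipients, again without overlap within a recipient. Hspe1 was past the threshold under all 21 alternatives, Hspa9 and Hspd1 under 20, Hspa8 under 12, Hsph1 under 10, and Hsp90b1 and Dnaja1 under 8. The count fell from 7 to 3 or 4 when 1 library was left out, which was so for the WT CD62L- libraries numbered 1 and 2, the WT CD62L+ libraries numbered 1 and 3, the Batf3-/- CD62L- libraries numbered 1 and 2 and each Batf3-/- CD62L+ library, and it was 1 in the libraries numbered 2 and 3 alone.

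Within recipients fewer genes passed. In Batf3-/- recipients Hspd1 (-0.51 ± 0.09, adjusted p = 0.0222) and Hspa9 (-0.53 ± 0.1, adjusted p = 0.0284) were lower in CD62L- cells, where 0.216% of all genes were lower (0.501% in all). Neither passed without the Batf3-/- CD62L- library numbered 1 or 2 or without any one of the 3 Batf3-/- CD62L+ libraries, and 1 of the pair passed without the WT CD62L+ library numbered 3 or the Batf3-/- CD62L- library numbered 3. In WT recipients 0 of 64 passed by edgeR, where 1.22% of all genes were called (0.672% higher and 0.552% lower). At an unadjusted p under 0.05 there were 12 of the 64, beside 2451 of all 19942 genes. DESeq2 called 1 of the 64, beside 435 higher and 389 lower of all genes. Libraries of the subsets did not overlap for 5 genes higher and 5 lower in CD62L- cells of WT recipients, where 7.93 and 9.82% of all genes did so, and for 4 higher and 9 lower in Batf3-/- recipients, where 6.44 and 6.94% did. The interaction of recipient and subset passed by edgeR for 0 of 64 genes and 0% of all genes. No difference of the subset effect between recipients was thus called by edgeR. At an unadjusted p under 0.05 there were 3 of the 64, beside 860 of all 19942 genes. DESeq2 called 0 of the 64, beside 17 higher and 19 lower of all genes.

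TRiC subunits lay in the direction of the chaperonin genes, with 4 of 8 lower in CD62L- cells on average over recipients (Cct3, Cct5, Cct6a and Cct7, by -0.25, -0.26, -0.27 and -0.2) and 0 higher by edgeR, by DESeq2 or at an unadjusted p under 0.05. Of the cochaperones, Fkbp4 was lower (-0.42 ± 0.07) and Fkbp5, another HSP90-bound immunophilin, higher (0.55 ± 0.12), and Timm44, which tethers Hspa9 to the import channel, was lower (-0.26 ± 0.06). Hsf4 was higher in CD62L- cells (1.87 ± 0.33), at 0.77 to 3.2 CPM against 0.335 to 0.986 CPM. Among the 8 ER members tested 1 was lower, and among 18 ER folding genes none passed by edgeR or DESeq2, with 4 at an unadjusted p under 0.05. B cell markers (8 genes) summed to 11.2 to 15.3 CPM in WT CD62L- and 92.9 to 117 CPM in WT CD62L+ cells, and to 22.2 to 33.9 and 91.8 to 130 CPM in the Batf3-/- groups, with none at 0 in any group. Mitochondrial transcripts took 1.38 to 2.37% of counts in CD62L- and 0.764 to 1.58% in CD62L+ libraries. The part of either in the subset differences was not tested.

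The third question was whether the recipient's Batf3 made a difference to the chaperones of the donor cells. Averaged over subsets, Hspa1b, Hspa1a, Hspe1, Hsph1 and Hspd1 were higher in cells from Batf3-/- recipients. These are the inducible HSP70 pair, the matrix chaperonin pair and an HSP110. The 5 genes called of 64, all higher, stand beside 0.271% of all genes called higher and 0.17% lower (0.441% in all). The log2 fold changes were 1.71 ± 0.27 (adjusted p = 0.0129), 1.56 ± 0.27 (0.0233), 0.63 ± 0.09 (0.0126), 0.42 ± 0.08 (0.0292) and 0.4 ± 0.06 (0.013) in the order named. Without both libraries that stand apart 2 of the 5 were called, Hspe1 and Hspd1.

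For Hspa1a the levels given above were 35.1 to 56.8 CPM in the 6 libraries from WT and 68.5 to 245 CPM in the 6 from Batf3-/- recipients. Hspa1b stood at 11, 12.9 and 13.7 CPM and at 11.8, 13.5 and 16.3 CPM in WT CD62L- and CD62L+ cells, and at 22.1, 46.7 and 76.8 CPM and 21.6, 38.6 and 55.6 CPM in the Batf3-/- groups. For both genes the ranges of the 2 recipients did not overlap, and the lowest library of each Batf3-/- group was the one numbered 1, with the lowest share of ribosomal RNA. Hsph1 stood at 81.5 to 90.4 CPM in WT CD62L- and 99.3 to 110 CPM in Batf3-/- CD62L- cells, and at 89.1 to 108 CPM in WT CD62L+ and 142 to 143 CPM in Batf3-/- CD62L+ cells. The recipients did not overlap within either subset, nor did they for Hspd1 and Hspe1.

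Of the other genes named, Hspa8 (0.3 ± 0.06, adjusted p = 0.0621), Dnaja1 (0.25 ± 0.05, 0.0655), Dnajb1 (0.32 ± 0.07, 0.0957), Hspa9 (0.28 ± 0.07, 0.12) and Hsp90aa1 (0.38 ± 0.1, 0.139) had positive changes that missed the threshold. Over the 12 heat-inducible genes 5 were called and 11 had an unadjusted p under 0.05, all of them higher, and the median log2 fold change was 0.39, beside 0.06 over the 64 genes and 0 over all genes. Of all 19942 genes, 1272 were higher and 1086 lower at an unadjusted p under 0.05. Of the 8 ER genes 0 were called by edgeR or by DESeq2, with 1 at an unadjusted p under 0.05 and a median of 0.01. Hspa5 changed by 0.1 ± 0.09, Dnajb9 by -0.07 ± 0.27, Hsp90b1 by 0.06, Dnajb11 by 0.03 and Dnajc3 by -0.09. Hsp90ab1 (0.26), Dnaja3 (0.1) and Hspa4 (-0.01) were not called, with adjusted p of 0.294, 0.717 and 1.0, nor was Hspb1 (0.411). DESeq2 called 11 of the 64 genes higher and 1 lower, beside 322 higher and 298 lower of all 19942 genes.

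Within the subsets taken singly 0 of 64 genes passed by edgeR. In CD62L- cells 10 genes were higher and 4 lower at an unadjusted p under 0.05, beside 1253 higher and 848 lower of all 19942 genes. DESeq2 called 4 of the 64, beside 219 higher and 212 lower of all genes. By edgeR 0.0501% of all genes were called (0.0251% higher and 0.0251% lower). Without the Batf3-/- CD62L- library numbered 1, Hspa1a and Hspa1b passed in these cells. In CD62L+ cells 16 were higher and 1 lower at an unadjusted p under 0.05, beside 534 higher and 619 lower of all 19942 genes. DESeq2 called 7 of the 64 there, beside 79 higher and 63 lower of all genes. By edgeR 0.00501% of all genes were called. Hspd1 came nearest in CD62L+ cells (0.54 ± 0.09, adjusted p = 0.0743) and Hspa1b in CD62L- cells (1.95 ± 0.39, adjusted p = 0.0973). The libraries of the recipients did not overlap for 10 genes higher and 2 lower in CD62L- cells, where 8.44 and 5.69% of all genes did so, and for 15 higher and 4 lower in CD62L+ cells, where 6.9 and 6.22% did.

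**Figure D4:**
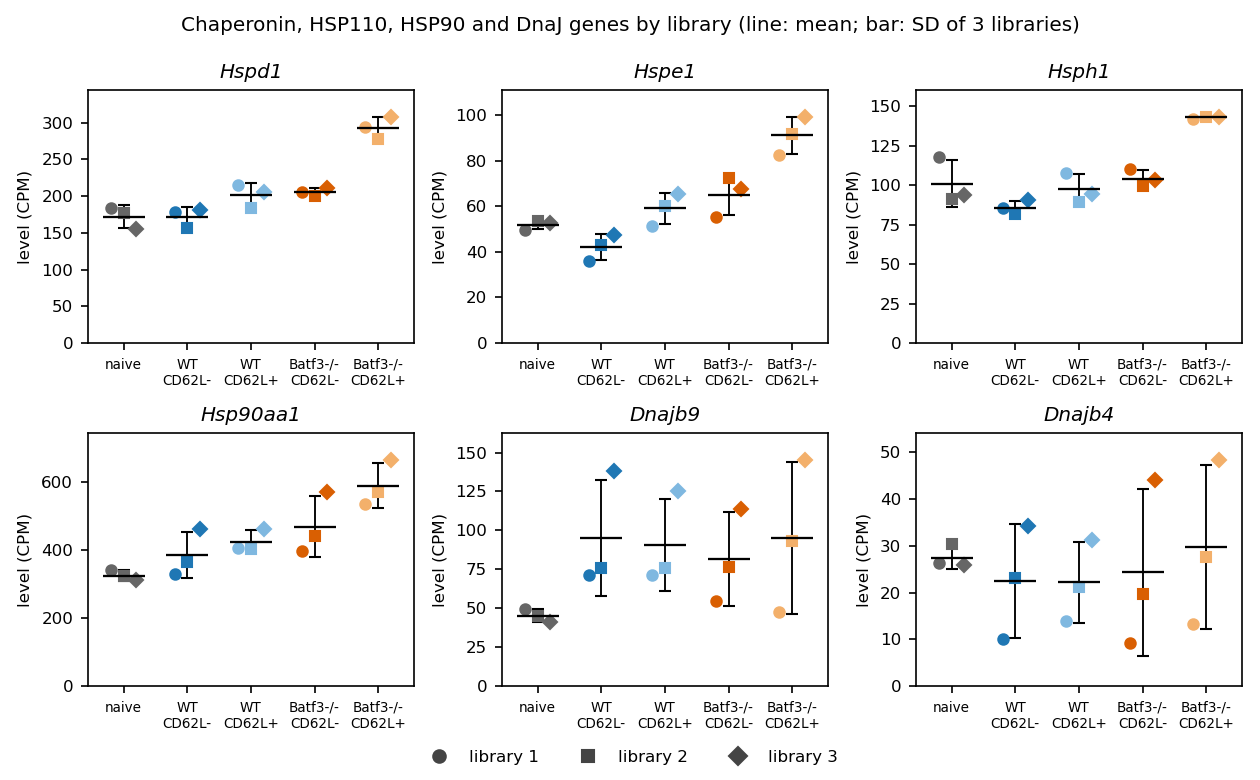
Levels in CPM (vertical axes, from 0) of the chaperonin genes Hspd1 and Hspe1, the HSP110 gene Hsph1, Hsp90aa1 and the J-domain genes Dnajb9 and Dnajb4 by library for the 5 groups (horizontal axis), with marker shapes for the library number, a line for the mean and a bar for the SD. Batf3-/- CD62L+ cells are highest for the first 3 genes, at 278 to 307, 82.7 to 99.1 and 142 to 143 CPM, and for Dnajb4 the library numbered 1 is the lowest of each primed group.

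Of the 5 called genes, Hspe1 was past the threshold under all 21 alternatives, Hspd1 under 20, Hspa1b under 19, Hspa1a under 14 and Hsph1 under 10. The count fell to 3 without any one of the WT CD62L- library numbered 2, the WT CD62L+ libraries numbered 1 and 2, and the Batf3-/- CD62L+ libraries numbered 2 and 3. Hspa1b missed the threshold without the WT CD62L+ library numbered 1 (adjusted p = 0.0531) and without both libraries that stand apart (0.0593), and Hspa1a reached at most 0.0797 over the libraries left out in turn. In the libraries numbered 2 and 3 alone, a choice made after seeing the data, 3 of the 5 were called. The 4 heat shock factors, 21 cochaperones, 8 TRiC subunits, 6 prefoldin subunits, 10 mitochondrial partners, 18 ER folding genes and 10 immediate early genes held 0 calls by edgeR in this comparison, with 2, 4, 4, 2, 1, 2 and 0 at an unadjusted p under 0.05 and 0, 4, 1, 0, 0, 1 and 0 called by DESeq2. Of all 19942 genes, 2358 had an unadjusted p under 0.05, and DESeq2 called 322 higher and 298 lower. Fos stood at 507 to 1260 CPM in the 6 libraries from WT and 496 to 971 CPM in those from Batf3-/- recipients. Fosb, Jun, Fos, Zfp36 and Atf3, named after their values were seen, were like Hspa1a lowest in the library numbered 1 of each primed group. Junb, Egr1, Ier2, Ier3 and Dusp1 were not lowest there in WT CD62L- cells. Atf3 was low, at most 4.96 CPM in any library. Fosb stood at 29.6, 58.3 and 84.7 CPM and at 18, 38.2 and 72.7 CPM in WT CD62L- and CD62L+ cells, and at 7.13, 41.4 and 118 CPM and 4.1, 35.6 and 80.7 CPM in the Batf3-/- groups. Jun stood at 160, 347 and 326 CPM and at 114, 244 and 286 CPM in the WT groups, and at 117, 357 and 500 CPM and 94.2, 326 and 350 CPM in the Batf3-/- groups. Unlike Hspa1a, Fosb and Jun overlapped between recipients, and the part of the immediate early genes in the level of Hspa1a was not tested. B cell markers summed to 11.2 to 15.3 CPM in WT and 22.2 to 33.9 CPM in Batf3-/- CD62L- cells and overlapped between recipients in CD62L+ cells, and their part was not tested.

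**Figure D5:**
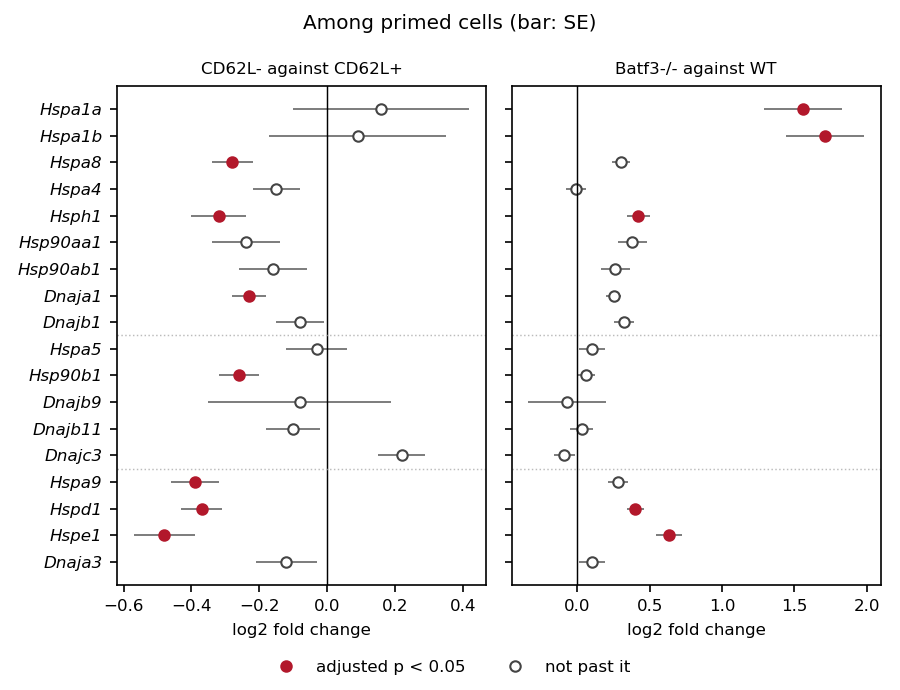
Log2 fold change (horizontal axes) of 18 chaperone genes (vertical axis; dotted lines divide cytosolic, ER and mitochondrial genes) between the subsets, averaged over recipients, and between the recipients, averaged over subsets, with bars for the SE and filled points for an adjusted p under 0.05. The 7 filled points on the left lie between -0.48 and -0.23, the 5 on the right between 0.4 and 1.71, and the ER genes on the right have open points near 0. Hspb1 is not drawn.

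Some genes varied more among libraries of a group than between groups. Dnajb4, a cytosolic J-domain protein named after its values were seen, stood at 9.98, 23.1 and 34.3 CPM in WT CD62L-, at 14, 21.3 and 31.2 CPM in WT CD62L+, at 9.25, 19.7 and 44 CPM in Batf3-/- CD62L- and at 13.2, 27.6 and 48.3 CPM in Batf3-/- CD62L+ cells, against 26.3, 30.3 and 26 CPM in naive cells. In each primed group the library numbered 1 was the lowest and the one numbered 3 the highest, as was so for Hspa1a, Hspa1b and Hsp90ab1 in each of the 4 primed groups. Libraries numbered 1 had the lower share of ribosomal RNA, and its part in these levels was not tested. Hspa1a and Hspd1 also overlap other genes on the opposite strand, Gm20481 over 19% of the exon bases of Hspa1a and Hspe1 over 112 bases. Further called genes do so too, among them Hsp90b1 over 10.3%, Dnajc17 over 8.26% and Dnaja1 over 7.05% of exon bases with 1 such gene each. No label says that strand was used in counting.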

How the data were processed

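RNA of the sorted cells was column-purified and amplified as cDNA of the whole transcriptome, and sequencing libraries were prepared by a transposase method, per the labels' protocols. The submitters' processing notes name mm10 as build and, as tools, STAR 2.7.3a, Subread 1.6.5 with featureCounts, Trimmomatic 0.36 and FastQC. What the authors deposited, and what is used here, is a single table of raw counts for each gene in the 15 libraries, with exon positions and lengths (annotation release: not given in the sources used here).

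Genes were kept with filterByExpr at a minimum count of 10. Libraries were scaled by TMM, and 1 model with a term per group over all 15 libraries was fitted with the quasi-likelihood functions of edgeR 4.0.16 (robust; R 4.3.3, limma 3.58.1). Contrasts of these terms gave the comparisons, with Benjamini-Hochberg adjustment over 19942 genes and a threshold of 0.05. CPM and RPKM used the scaled library sizes and the deposited exon lengths. The SE is the log2 fold change over the root of the F statistic. The 2 averages weight both levels equally.

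Alternatives were RLE size factors, no filter, DESeq2 1.42.0, the replicate number as a block, leaving out each library in turn or both that stand apart, and, added after seeing the data, the libraries numbered 2 and 3 only. No 2 libraries of a group were duplicates (chi-square per degree of freedom 42.4 to 642). On data simulated from these libraries with 19942 genes, 100 of them changed 2-fold and 100 changed 4-fold, 37 and 60 were recovered for WT CD62L- against naive cells (2 false calls), 27 and 50 for the subsets in WT recipients (3) and 48 and 65 for Batf3-/- against WT recipients (9).

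The genes, lists and motifs were chosen with earlier results of these data known. Named against naive cells and in both averages were 19 fixed genes (18 drawn, without Hspb1), plus the 5 largest called changes per direction with at least 5 CPM in the higher group; other genes were named after their values were seen. Promoter windows are from RefSeq (GRCm38.p6), shared words from GENCODE M21 on the same build, and exon overlaps from the deposited exon positions.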

Additional observations from a re-analysis of the deposited data

How the results depend on the processing

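Of 103 values of called genes, none changed direction under any alternative. With RLE size factors 5 missed the threshold, with no filter 8, with DESeq2 0, with the replicate block 0, without both libraries that stand apart 13, and in the libraries numbered 2 and 3 only 27. Leaving out each library in turn, 224 of 1545 missed it.

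Counts of called genes moved as follows. DESeq2 called 1 gene between subsets in WT recipients (0 by edgeR), 5 in Batf3-/- recipients (2), 4 and 7 between recipients in CD62L- and CD62L+ cells (0 each), and 12 on average over subsets (5). With the replicate block these 5 counts were 1, 4, 3, 3 and 10. Over all 19942 genes DESeq2 called 435 higher and 389 lower between subsets in WT and 228 and 204 in Batf3-/- recipients. Between recipients it called 219 and 212 in CD62L- cells, 79 and 63 in CD62L+ cells and 322 and 298 on average. Without both libraries that stand apart WT CD62L+ cells had 25 calls against naive cells (16) and the recipient average 2 (5). In the libraries numbered 2 and 3 only, Batf3-/- subsets had 0 calls (2), the subset average 1 (7) and the recipient average 3 (5). With each library left out in turn, counts ran from 18 to 22, 12 to 20, 15 to 24 and 19 to 27 against naive cells (WT CD62L-, WT CD62L+, Batf3-/- CD62L-, Batf3-/- CD62L+). They ran from 0 to 0, 0 to 3 and 3 to 8 between subsets in WT, in Batf3-/- and on average, from 0 to 2, 0 to 0 and 3 to 6 between recipients in CD62L-, in CD62L+ and on average, and from 0 to 0 for the interaction. Fewer libraries entered the fits that left libraries out. Otherwise the cause of the moves was not tested.

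Libraries that share a number are not said to share an animal or day. Their deviations correlated at 0.0162 to 0.111 over 10 pairs of groups. In 30 of 30 comparisons, 3 per pair of groups, a library correlated best with its own number. The 15 libraries recur in these comparisons, which are not independent. The block is therefore given here as a hint from the data and not as the design. Genes near 1 CPM and changes under 2-fold are those the depth and 3 libraries a group limit most.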
